A study of Mus musculus with 11 samples.

Results

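The Lrrc genes are a set of mouse genes that share a symbol root, given because their proteins contain leucine-rich repeats. Members were the protein-coding genes of the RefSeq table of GRCm38 whose symbol is Lrrc followed by a number, except Lrrc6, a dynein arm assembly gene. This rule took 66 of 21887 protein-coding genes. Binding of RFX1, RFX2 and RFX3 to them was read from chromatin immunoprecipitation followed by sequencing (ChIP-seq) of ependymal cells, which carry many motile cilia each and cover the walls of the brain ventricles. Lateral-wall tissue of wild-type OF1 mouse brain was the source, and the cells were differentiated in culture; the labels call the tissue embryonic and give P0 as the age. All 11 samples share this source: 2 ChIP samples for each RFX, each with that RFX's own antibody (for RFX2, of a different lot in each replicate), and 5 input samples without antibody. Each RFX has 1 deposited list of reproducible peaks in which the replicates are already merged, which leaves no replicate error to give. Peak lists hold no expression values, so the cell type could not be checked against its markers. A gene was called bound when the summit of a peak, its position of strongest signal, lay within 1 kb of the gene's start or end.

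The RFX family of transcription factors binds DNA through a winged helix at the X-box, an imperfect inverted repeat, and is known for its control of genes for cilia. Leucine-rich repeats are short protein motifs that stack into a curved surface and serve in contacts between proteins. The Lrrc symbol therefore groups proteins of unlike function: components of the axoneme and centrosome, subunits of anion and potassium channels, synaptic adhesion proteins, immune surface proteins and adaptors of ubiquitin ligases.

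Promoter sequences show the bases at the RFX1 summits of those bound genes whose promoter windows reach the summit. The sequences are RefSeq bases of GRCm38.p6 from a table that gives 250 bases before to 50 after each transcript start. It held 54 of the 66 members, in 62 windows. Each stretch below runs 5′ to 3′ on the strand of the gene and is centred on the RFX1 summit, with up to 50 bases on either side as far as the window reaches. The X-box was searched as a pair of 6-base arms, GTNRCC and RGYAAC, with a spacer of 0 to 3 bases, on both strands. Here N is any base, R is A or G, and Y is C or T. A match on the other strand is printed as it reads on the gene strand, as for the full matches of Lrrc10b and Lrrc71. Capitals mark the match closest to the consensus, or a single arm where the stretch had no X-box match with up to 1 mismatch. The summits of 3 genes had a match to the full consensus beside them:
Lrrc10b, chr19:10457541-10457641, - strand: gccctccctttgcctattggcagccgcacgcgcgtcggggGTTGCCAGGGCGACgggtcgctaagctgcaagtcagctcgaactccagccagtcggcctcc
Lrrc43, chr5:123489246-123489346, + strand: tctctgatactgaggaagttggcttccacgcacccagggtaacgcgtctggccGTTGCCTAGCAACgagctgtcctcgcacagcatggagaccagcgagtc
Lrrc71, chr3:87748574-87748639, - strand: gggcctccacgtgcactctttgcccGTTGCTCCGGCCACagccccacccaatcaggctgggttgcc

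In 5 further genes the capitals mark a match with 1 mismatch:
Lrrc23, chr6:124779710-124779810, - strand: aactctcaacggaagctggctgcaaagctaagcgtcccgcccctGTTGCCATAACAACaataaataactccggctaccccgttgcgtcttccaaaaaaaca
Lrrc49, chr9:60688110-60688210, - strand: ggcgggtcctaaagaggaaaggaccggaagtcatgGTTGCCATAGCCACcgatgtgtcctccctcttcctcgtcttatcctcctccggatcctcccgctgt
Lrrc56, chr7:141194948-141195048, + strand: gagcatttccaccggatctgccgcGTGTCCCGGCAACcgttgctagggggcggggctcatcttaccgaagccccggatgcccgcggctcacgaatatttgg
Lrrc70, chr13:106836354-106836454, - strand: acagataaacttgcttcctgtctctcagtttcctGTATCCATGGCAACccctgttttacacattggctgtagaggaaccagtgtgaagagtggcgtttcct
Lrrc73, chr17:46253915-46253971, + strand: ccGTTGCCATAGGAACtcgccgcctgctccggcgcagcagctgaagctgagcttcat

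The Lrrc34 stretch held a single arm, and that of Lrrc27, which was not called bound, held neither:
Lrrc34, chr3:30647812-30647912, - strand: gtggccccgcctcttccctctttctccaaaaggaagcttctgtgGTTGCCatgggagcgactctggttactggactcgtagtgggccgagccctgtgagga
Lrrc27, chr7:139213210-139213310, + strand: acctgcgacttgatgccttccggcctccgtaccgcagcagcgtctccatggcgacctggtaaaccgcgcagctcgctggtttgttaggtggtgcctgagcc

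RFX1 summits lay on or next to these matches. Not every bound gene has such a stretch. Lrrc46 has no promoter window, and the windows of Lrrc51, Lrrc72, Lrrc74b and Lrrc8b do not reach the RFX1 summit. At Lrrc74b the stretch around the RFX3 summit held neither an X-box match nor a single arm. The match with 1 mismatch in its window was centred 99.5 bp from that summit. Of 10 member windows with an RFX1 summit inside, 3 (30.0%) had the full consensus centred within 25 bp of it and 8 (80%) had a match with up to 1 mismatch. The shares were 13.7% and 49.1% of the 1101 windows of all protein-coding genes with an RFX1 summit. The member shares rest on 10 windows, and the difference was not tested. The closest was Lrrc23, where the match at -39 to -26 from the transcript start was centred 0.50 bp from the RFX1 summit, 2.50 bp from that of RFX2 and 8.50 bp from that of RFX3. Lrrc23 also had a full consensus match further up, at -164 to -152, which lay 125 bp from the RFX1 summit; the perfect match thus lay farther from the summits than the imperfect one. In Lrrc73 the match was centred 2.50 bp from the RFX1 summit and 6.50 bp from the RFX2 and RFX3 summits. In Lrrc10b the distance was 3.50 bp for RFX1 and 22.5 bp for RFX3. In Lrrc56 the marked match was 20 bp from the RFX1 summit, and the window held another match with 1 mismatch at -71 to -58. In Lrrc34 the single arm was 3.50, 0.50 and 5.50 bp from the RFX1, RFX2 and RFX3 summits.

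The share of windows with the X-box was higher in bound than in unbound Lrrc genes, without a test. The full consensus was in 4 of 16 windows of bound members (25%) and in 0 of 46 windows of unbound members, which allows a share of up to 6.52%. With up to 1 mismatch the windows numbered 11 (68.8%) among bound members and 3 (6.52%) among unbound ones. Across all protein-coding genes, the full consensus was in 1.5% of 21263 windows and a match with up to 1 mismatch in 11.3%. Of the 11 windows of Lrrc genes with an RFX summit inside, 4 had the full consensus (36.4%) and 9 a match with up to 1 mismatch (81.8%), against 16.6% and 58.8% of such windows of all genes. Windows of all genes without a summit had them in 0.574% and 8.40%. The Lrrc shares with a summit inside rest on 11 windows and were not tested against those of all genes. The arm sequences GTTGCC and GTTACC, either of which can be part of an X-box match, were in 11 windows of bound members (68.8%), 8 of unbound members (17.4%) and 18.3% of all windows. The windows of Lrrc28, Lrrc40 and Lrrc74a held a match with 1 mismatch and no RFX peak was called there. Among the windows of bound members, 1 of Lrrc72 and 1 of Lrrc56 also held such a match without an RFX summit inside. A match is a description of the bases and not evidence of a site.

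**Figure D1:**
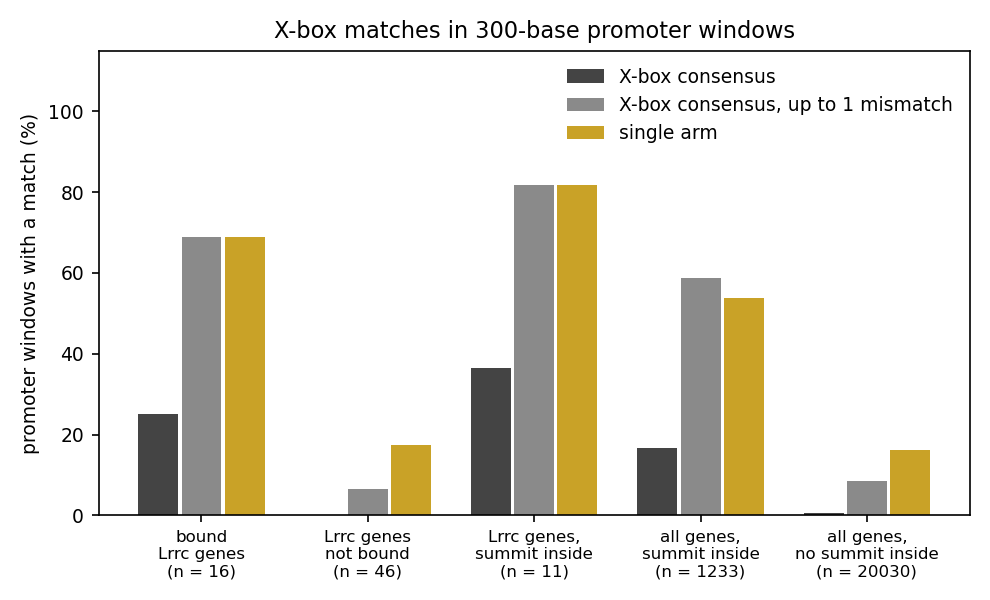
Percent of 300-base promoter windows (y axis) that hold the X-box consensus, the consensus with up to 1 mismatch or a single arm, for bound Lrrc genes, unbound Lrrc genes, windows of Lrrc genes with an RFX summit inside, and windows of all protein-coding genes with and without an RFX summit inside. Bound Lrrc genes reach 25% for the full consensus and 68.8% with up to 1 mismatch, and unbound ones 0 and 6.52%.

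RFX peaks lay at 14 of the 66 Lrrc genes. All 14 of these had RFX1 (21.2%, 95% exact Clopper-Pearson interval 12.1 to 33.0), against 9.05% of all protein-coding genes. RFX2 peaks lay at 6 members (9.09%, 3.41 to 18.7), against 2.08% of all genes. RFX3 peaks lay at 12 members (18.2%, 9.76 to 29.6), against 7.94% of all genes. These intervals cover the counting of genes only, since the depth behind the lists is unknown. At least 1 RFX was bound at 14 members, all of them through RFX1, against 10.1% of all genes, and all 3 at 6, against 2.06%. The 6 members with all 3 factors were Lrrc23, Lrrc34, Lrrc46, Lrrc49, Lrrc56 and Lrrc73. A further 6, Lrrc10b, Lrrc43, Lrrc51, Lrrc70, Lrrc72 and Lrrc74b, had RFX1 and RFX3, and Lrrc71 and Lrrc8b had RFX1 alone. No member had RFX3 without RFX1, a class that held 231 of the 2211 bound genes in all (10.4%). The absence of this class rests on 14 bound members, too few to show a difference, and was not tested. Members with all 3 factors made up 42.9% of the bound members, and such genes 20.4% of all bound genes.

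Of the 14 bound members, 8 were in the group of ciliary and centrosomal genes. Of 12 members grouped here as ciliary and centrosomal from general knowledge, 8 had RFX1 (66.7%, interval 34.9 to 90.1), 5 had RFX2 (41.7%, 15.2 to 72.3) and 7 had RFX3 (58.3%, 27.7 to 84.8). Of the other 54 members, 6 had RFX1 (11.1%, 4.19 to 22.6), 1 had RFX2 (1.85%) and 5 had RFX3 (9.26%), which is near the share of all protein-coding genes. The group was drawn up with earlier results of these data known, and Lrrc34, Lrrc36, Lrrc43, Lrrc51, Lrrc61 and Lrrc71 are in it as candidates only. The other 54 members are what this grouping left. The shares of both are therefore descriptions, and their difference was not tested.

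**Figure D2:**
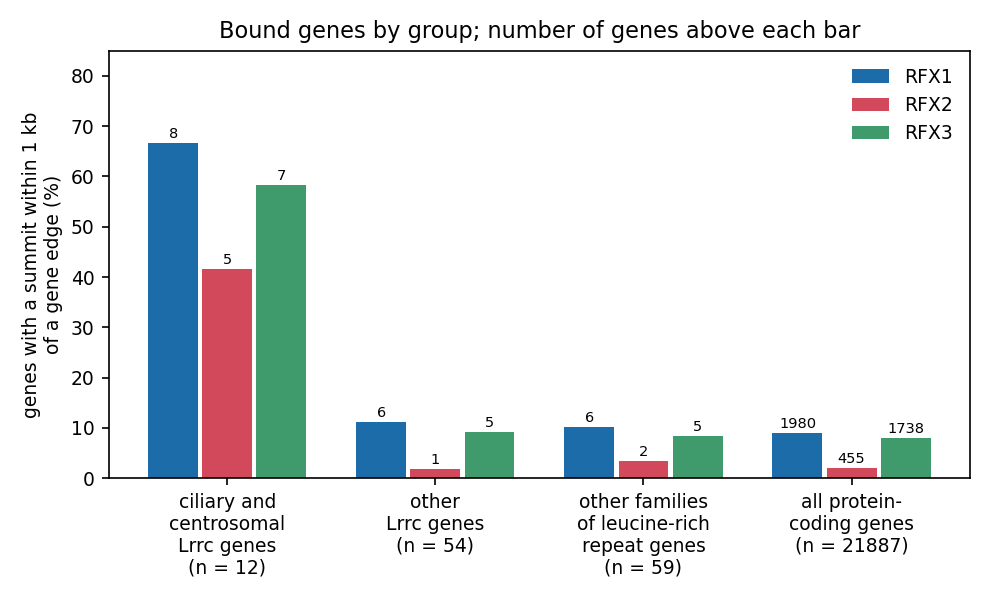
Percent of genes with a summit of RFX1, RFX2 or RFX3 within 1 kb of a gene edge (y axis), for the 12 ciliary and centrosomal Lrrc genes, the other 54 Lrrc genes, 59 genes of 12 other families of leucine-rich repeat genes and all 21887 protein-coding genes; numbers above the bars count bound genes. The ciliary and centrosomal group stands at 66.7%, 41.7% and 58.3%. Both Lrrc groups were drawn up with earlier results of these data known.

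Lrrc56, placed in the ciliary group, had the RFX1 and RFX2 peaks with the highest −log10 q among the Lrrc genes. Its protein is linked to outer dynein arms, and variants of the human gene are known in primary ciliary dyskinesia. The gene lies on chromosome 7 at 141194111-141210055. Its RFX1 peak had a −log10 q of 194 with a 19.6-fold enrichment and ranked 27 of 7440. Its RFX2 peak had a −log10 q of 142 with a fold of 20.4 and ranked 18, in the top 1.44% of that list. Its RFX3 peak had a −log10 q of 78.5 with a fold of 5.87 and ranked 546 of 9318. The −log10 q and fold are the authors' values for each peak within its own list. The summits lay inside the gene, 887, 893 and 882 bp from its annotated edge, but 145, 139 and 150 bp upstream of another of its transcript starts. The edge of Hras, a small GTPase gene, was 979 bp from the RFX1 summit, so the peak counts for both genes.

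Lrrc23 encodes a radial spoke protein that sperm motility needs in mice. It lies on chromosome 6 at 124769869-124780438, and its RFX1, RFX2 and RFX3 summits lay 33, 35 and 41 bp upstream of the transcript start. Their −log10 q were 121, 49.1 and 109, with folds of 11.4, 10.6 and 11.2 and ranks of 354, 255 and 205. All 3 peaks overlapped, with summits 2 to 8 bp apart. Lrrc23 is the member that is also a radial spoke gene.

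Lrrc49 encodes a subunit of the tubulin polyglutamylase complex, which adds glutamate chains to axonemal tubulin. Its RFX3 peak had the highest −log10 q of RFX3 among the Lrrc genes, 126, ranked 108 in the list. Its fold was 9.62, below the 13.5 at Lrrc72 and 11.2 at Lrrc23. RFX1 there had 163 with a fold of 19.9, ranked 97, and RFX2 had 67.9 with a fold of 17.6, ranked 122. The gene lies on chromosome 9 at 60587224-60688167. The RFX1 and RFX3 summits lay 26 and 29 bp upstream of a transcript start, and the RFX2 summit 110 bp downstream of it, which is 136 bp from that of RFX1. The peaks still overlapped by 683 bp. This was the widest spacing between RFX1 and RFX2 summits among the 6 members with both.

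Lrrc46, needed for the sperm flagellum in mice, lies on chromosome 11 at 97034602-97041369. Its RFX1 peak had a −log10 q of 123 and a fold of 14.5, ranked 342, and its RFX3 peak 55.1 with a fold of 4.91, ranked 1239. The RFX2 peak had 18.2 and a fold of 6.16 and stood at 99.6% of the way down its list, whose lowest value is 18.2. The RFX1, RFX2 and RFX3 summits lay 15, 68 and 11 bp from the edge of Lrrc46, outside the gene. The edge of the mitochondrial ribosomal protein gene Mrpl10 was 198 bp from the RFX1 summit, so this peak too sits between neighbours. Lrrc46 is not in the promoter table.

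Lrrc34 and Lrrc73 complete the members with all 3 factors. Lrrc34, whose protein was described in mouse pluripotent stem cells, lies on chromosome 3 at 30624267-30647818. Its summits lay 44, 47 and 42 bp upstream of the start, with −log10 q of 131, 27.6 and 57.0 for RFX1, RFX2 and RFX3 and folds of 16.0, 8.46 and 8.26. The same bases lie within Lrriq4, another leucine-rich repeat gene, which had no summit within 1 kb of its own ends. Lrrc73 on chromosome 17 (46254165-46257316) had summits 244, 248 and 235 bp upstream of its start, with −log10 q of 129, 28.0 and 110 and folds of 17.3, 8.23 and 9.59. At Lrrc34 and Lrrc73 the RFX2 peak was in the top 57.7% and 56.1% of its list, and the RFX1 peak in the top 3.72% and 3.98% of its longer one.

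**Figure D3:**
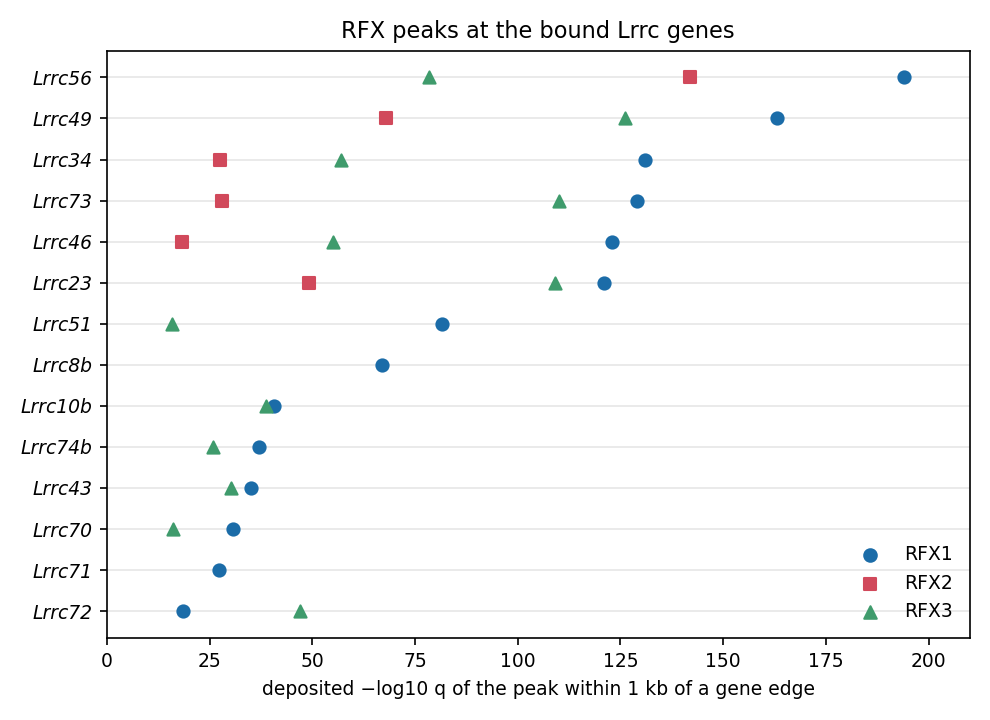
Deposited −log10 q (x axis) of each RFX peak within 1 kb of an edge of the 14 bound Lrrc genes, ordered by RFX1; circles are RFX1, squares RFX2 and triangles RFX3. The 6 genes with RFX2 have RFX1 values of 121 to 194, and the 8 without have 18.5 to 81.5.

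RFX2 was called where the RFX1 peak was strong. The RFX1 −log10 q of the 6 members with RFX2 ran over 121, 123, 129, 131, 163 and 194. Those of the 8 members without RFX2 ran from 18.5 to 81.5 with a median of 36.1, and the ranges did not overlap. Over all protein-coding genes the ranges did overlap, from 33.6 upwards with a median of 116 over the 455 genes with RFX2 and up to 164 with a median of 36.1 over the 1525 without it. Of the 228 genes with an RFX1 peak at least as strong as that of Lrrc23, 202 (88.6%) had RFX2, and of the 1415 genes with an RFX1 peak no stronger than that of Lrrc51, 68 (4.81%) had it. The RFX2 list is the shortest, so a member without an RFX2 peak was not called there, which does not show that RFX2 was absent.

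Bound members had a higher median peak strength than all bound genes. Their median RFX1 −log10 q was 74.2 over 14 members, against 49.1 over 1980 bound genes. For RFX2 the medians were 38.6 over 6 members and 32.3 over 455 genes, and for RFX3 51.0 over 12 members and 32.6 over 1738 genes. Median folds were 12.5, 9.55 and 7.33 in the members and 8.49, 8.74 and 4.84 in all bound genes for RFX1, RFX2 and RFX3. No test was run on these medians.

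The 6 members with RFX1 and RFX3 had RFX1 peaks with a lower −log10 q than any member with RFX2. Of them, Lrrc10b, Lrrc43, Lrrc70 and Lrrc74b had both summits upstream of a transcript start, with folds of 6.44 to 8.93 for RFX1 and 6.18 to 9.28 for RFX3 at all but Lrrc43 (6.0). Lrrc43 on chromosome 5 (123489287-123508205) had RFX1 and RFX3 summits 29 and 17 bp upstream of its transcript start, with −log10 q of 35.2 and 30.1. Lrrc10b on chromosome 19 (10455371-10457447) had them 144 and 125 bp upstream, with 40.7 and 38.8. Lrrc70 on chromosome 13 (106833719-106836302) had them 102 and 91 bp upstream, with 30.7 and 16.1, at bases that lie within the importin gene Ipo11. Lrrc74b on chromosome 16 (17544465-17561328) had its RFX1 summit 308 bp and its RFX3 summit 207 bp upstream of the start, with 37.0 and 25.9. These 101 bp were the widest spacing of RFX1 and RFX3 summits among the 12 members with both, where the median was 8.5 bp. The purinergic receptor gene P2rx6 has an edge 312 bp from that RFX1 summit.

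Lrrc51 and Lrrc72 were the bound members whose RFX1 and RFX3 peaks stood farthest apart in the order of their lists. Lrrc51, on chromosome 7 at 101912989-101933918, had an RFX1 peak whose −log10 q was 81.5, with a fold of 13.6, in the top 13.0% of its list. The RFX3 peak there had 15.8 and a fold of 2.98, in the top 62.7% of its list, although its summit was 1 bp from that of RFX1. The summits lay 83 and 84 bp from the gene's edge, and the edge of Numa1, a spindle protein gene, was 142 bp from the RFX1 summit. The transcript start that the promoter table gives for Lrrc51 was 12610 bp away. Lrrc72, on chromosome 12 at 36208329-36256396, had the reverse order, with an RFX3 peak of 46.9 and a fold of 13.5 in the top 17.5% and an RFX1 peak of 18.5 and a fold of 5.52 in the top 72.8%. Its RFX1 and RFX3 summits lay 712 and 699 bp beyond the 3′ end and 10601 and 10588 bp from the nearest transcript start, so Lrrc72 was bound at its 3′ end. Standing in lists of unlike length does not measure a difference in binding.

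The 2 members with RFX1 alone were of unlike strength. Lrrc8b, a subunit of the volume-regulated anion channel family on chromosome 5 (105415206-105490079), had an RFX1 peak whose −log10 q was 67.0, with a fold of 14.3, at 444 bp from its edge and 1013 bp upstream of the nearest listed transcript start, within the lncRNA gene 4930542N06Rik. The other 4 subunit genes, Lrrc8a, Lrrc8c, Lrrc8d and Lrrc8e, had no summit within 1 kb of an edge. Lrrc71 on chromosome 3 (87736923-87748623) had an RFX1 peak with 27.3 and a fold of 5.15, and its summit was 34 bp downstream of the start. The edge of the platelet receptor gene Pear1 was 508 bp from that summit.

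**Figure D4:**
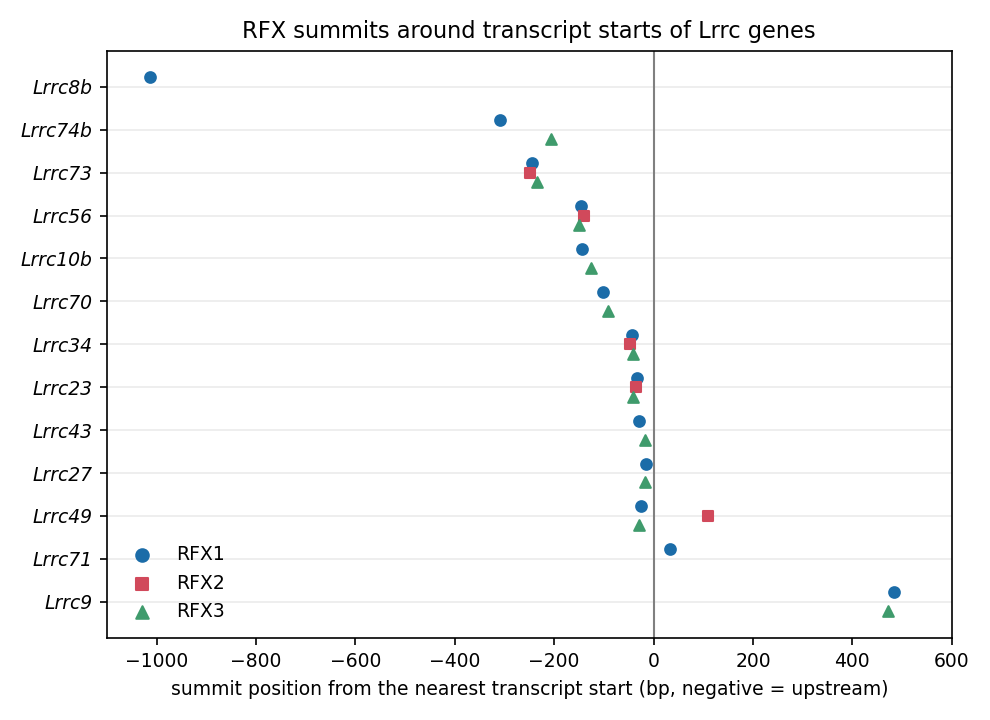
Position of RFX1 (circles), RFX2 (squares) and RFX3 (triangles) summits relative to the nearest transcript start of each Lrrc gene (x axis, bp, negative is upstream), for the 13 genes with a summit within 1100 bp of one. In 10 of these genes the RFX1 summit lies 15 to 308 bp upstream, among them Lrrc49 with its RFX2 summit 110 bp downstream; at Lrrc8b it lies 1013 bp upstream, and at Lrrc71 and Lrrc9 downstream.

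The 1 kb window passed over 2 members with a summit at a transcript start inside the annotated gene. Both were picked with their values in view. Lrrc27 had RFX1 and RFX3 summits 15 and 18 bp upstream of a transcript start, with −log10 q of 120 and 35.1, but 1628 and 1625 bp from the annotated edge. The edge of the kinase gene Stk32c was 47 bp from the RFX1 summit. Lrrc9, placed in the ciliary group, had them 483 and 471 bp downstream of a start and 7732 and 7720 bp from its edge, with 37.9 and 38.3. Counting transcript starts as well as gene edges gave 16 members with RFX1, 6 with RFX2 and 14 with RFX3, against 10.1%, 2.35% and 8.96% of all protein-coding genes counted the same way.

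Just inside the threshold, the farthest summits from an edge were those of Lrrc56 (887 bp for RFX1), Lrrc72 (712 bp) and Lrrc23 (678 bp). Just outside it lay RFX3 at Lrrc4b (1348 bp), RFX1 at Lrrc27 (1628 bp) and RFX1 at Lrrc3b (1743 bp), followed by Lrrc24 (2549 bp), Lrrc31 (RFX3, 3322 bp) and Lrrc18 (3794 bp). Lrrc4b encodes a synaptic adhesion protein. Its RFX3 peak had a −log10 q of 15.2, and the edge of Aspdh was nearer to the summit, at 736 bp.

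The remaining 52 members had no summit within 1 kb of an edge. Their median distance to the nearest summit was 45305 bp for RFX1, 371065 bp for RFX2 and 48700 bp for RFX3, and 37 had no summit within 5 kb of an edge or inside the gene. The 3 role groups with no bound member, 22 genes in all, were the auxiliary gamma subunits of the BK potassium channel (Lrrc26, Lrrc38, Lrrc52 and Lrrc55), a group with neuronal adhesion and synaptic genes (Lrrc3, Lrrc3b, Lrrc3c, Lrrc4, Lrrc4b, Lrrc4c, Lrrc7 and Lrrc24), and a group with ubiquitin ligase, nuclear and other housekeeping genes (Lrrc1, Lrrc14, Lrrc29, Lrrc40, Lrrc41, Lrrc42, Lrrc47, Lrrc57, Lrrc58 and Lrrc59). Of 7 immune, secreted or surface genes, Lrrc70 was bound (14.3%, interval 0.361 to 57.9), and Lrrc15, Lrrc17, Lrrc19, Lrrc25, Lrrc32 and Lrrc66 were not. Lrrc32 encodes GARP, which presents latent TGF-beta on regulatory T cells. Of 7 genes grouped with striated muscle, Lrrc10b was bound (14.3%, interval 0.361 to 57.9), and Lrrc2, Lrrc10, Lrrc14b, Lrrc20, Lrrc30 and Lrrc39 were not. The intervals of the immune and muscle groups both include the 10.1% of all protein-coding genes. Those of the 3 groups with none bound also include it. Their upper limits were 60.2% for the BK channel group, 36.9% for the neuronal group and 30.8% for the housekeeping group. These groups are too small to show that they lack RFX binding. In the ciliary group Lrrc9, Lrrc36, Lrrc45 and Lrrc61 were unbound. Lrrc45 acts in the centrosome linker, and its nearest RFX1 summit was 14009 bp away. The little studied Lrrc18, Lrrc27, Lrrc28, Lrrc31, Lrrc37a, Lrrc63, Lrrc69, Lrrc74a, Lrrc75a and Lrrc75b were also unbound. Lrrc72, Lrrc73 and Lrrc74b were the bound ones of that group of 13 (23.1%, interval 5.04 to 53.8).

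Leucine-rich repeat genes outside the Lrrc symbol were counted in the same way. These were 12 families that share a symbol root and 9 further genes chosen for a known or possible ciliary or centrosomal role. Of the 59 genes of the 12 families, 6 had RFX1 (10.2%), 2 had RFX2 (3.39%) and 5 had RFX3 (8.47%), against 9.05%, 2.08% and 7.94% of all protein-coding genes. These bound genes were in 2 families, Lrriq and Fbxl. The other 10 families, with 38 genes, had none bound, among them the synaptic and guidance families Lrrtm, Lrfn, Slitrk and Flrt. They held 2 to 6 genes each, too few to show that a family lacks RFX binding. Of 3 Lrriq genes, Lrriq1 had all 3 factors, with −log10 q of 148, 86.2 and 113, and Lrriq3 had RFX1 and RFX3. Of the 9 genes chosen by role, 5 had RFX1, 1 had RFX2 and 4 had RFX3; their choice by role makes this a description. Dnaaf1, a dynein arm assembly gene, had all 3 factors with 109, 24.2 and 53.4. Drc3 and Tcte1, genes of the nexin-dynein regulatory complex, had RFX1 and RFX3, with 78.0 and 39.1 at Drc3 and 46.3 and 36.8 at Tcte1. Lrguk, needed for sperm tails in mice, had RFX1 and RFX3 with 111 and 68.0, and Lrwd1 had RFX1 alone with 17.5. Lrrcc1, Cep72, Cep97 and Ppp1r42 were the unbound genes of these 9. Of 18 Fbxl genes, which encode F-box proteins with leucine-rich repeats, 4 were bound by RFX1 (22.2%). Fbxl19 had all 3 factors with 189, 134 and 170, and Fbxl2 and Fbxl14 had RFX1 and RFX3. Fbxl13, which encodes a subunit of the nexin-dynein regulatory complex, had RFX1 alone (16.6).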

How the data were processed

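Peaks came from 1 list per RFX of reproducible peaks, deposited by the authors with replicates merged. Per the submitters' processing notes, the tools were MACS2 2.0.10.20130520, Bowtie 0.12.7 and CASAVA 1.8.2, in roles that the notes do not state, and the build was GRCm38. Not given in the sources used here: how reproducibility was judged, the control, and library depth. Columns of the deposited lists follow the narrow-peak layout: the score (the whole part of 10 times the −log10 q), the fold enrichment, read as a ratio of ChIP to background, the −log10 q and the summit offset. The score was not used, nor was 1 more value column per list, the −log10 p. The RFX1 and RFX3 lists held 7440 and 9318 peaks and the RFX2 list was the shortest. Their lowest −log10 q were 12.0, 8.87 and 18.2 for RFX1, RFX3 and RFX2.

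Genes were the 21887 protein-coding genes on assembled chromosomes of RefSeq GRCm38.p6, and gene strand and transcript starts came from the RefSeq promoter table. Bound calls, distances and motif counts were computed with Python 3.11.15, pandas 2.3.3 and SciPy 1.17.1, after checks on simulated peaks and bases. Shares of members have exact Clopper-Pearson intervals (95%). For the X-box windows of unbound members, a count of 0 was taken to allow up to 3 counts of the total. No hypothesis test was run. The members, role groups and families were chosen with earlier results of these data known. Every member is named; full values go to members with all 3 RFX and the strongest others.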

Additional observations from a re-analysis of the deposited data

How the results depend on the processing

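Of 29 recomputed counts, 23 stayed within 1.5 times the reported one and 6 did not. With each list shortened to its best peaks, at the length of the RFX2 list, 7 members had RFX1 and 6 had RFX3, against 3.10% and 2.07% of all genes, and the 6 with RFX3 were the 6 with all 3 factors; a shorter list holds fewer peaks by construction. With the better-scoring 50% of the RFX2 list, 3 members had RFX2 (Lrrc23, Lrrc49 and Lrrc56), against 1.13% of all genes. Leaving out peaks within 1 kb of another protein-coding gene left 9 members with RFX1, without Lrrc46, Lrrc51, Lrrc56, Lrrc71 and Lrrc74b, against 5.97% of all genes under the same exclusion. Among bound members the X-box consensus was in the windows of 4 genes, a match with up to 1 mismatch in 10 and a single arm in 11. Windows of 500 bp gave 11, 4 and 9 members for RFX1, RFX2 and RFX3, against 7.38%, 1.75% and 6.41% of all genes, and windows of 5 kb 18, 6 and 18, against 14.6%, 3.36% and 13.8%. Summits within 50 bp of each other kept 11 of the 12 members with overlapping RFX1 and RFX3 peaks and 4 of the 6 with all 3. The count over transcript starts together with gene edges was chosen after seeing the data. Read depth is unknown, so a peak that was not called cannot be told apart from one below detection. No paired analysis was possible because the replicates of each RFX are merged in the deposited lists, and for the same reason no replicate could be left out.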

Other observations

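Several unbound Lrrc genes had RFX peaks inside the gene, over 1 kb from its ends. This was so in 12 of the 52 unbound members (23.1%) and in 13.4% of all 19676 unbound protein-coding genes, whose median gene lengths were 20985 and 16502 bp; no test was run. Lrrc7, which encodes the postsynaptic density protein densin, had RFX1, RFX2 and RFX3 summits together, 101481, 101472 and 101457 bp from its 3′ end, with −log10 q of 84.0, 41.7 and 38.3 and folds of 18.4, 16.7 and 16.1. Lrrc4c, a netrin-G ligand gene, had an RFX3 peak of 79.3 with a fold of 26.7 and an RFX1 peak of 26.5 with a fold of 10.1, with summits 153335 and 153349 bp from its 3′ end. Lrrc8c held 3 RFX1 and 3 RFX3 peaks, of which the strongest was RFX3 with 54.3 and a fold of 20.4, and Lrrc8d held 1 of each with 21.0 for RFX1 and 15.7 for RFX3. Lrrc1, a basolateral scaffold gene, had RFX1 at 71.3 and RFX3 at 57.0 in a region 34200 bp from its start. These genes were picked with their values in view.

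The strongest RFX3 peak within 5 kb of an unbound Lrrc gene had a −log10 q of 114 and lay 4995 bp from the 3′ end of Lrrc4b, nearer to the edges of Josd2 (366 bp) and Aspdh (595 bp). The nearest RFX1 and RFX2 summits lay 5027 and 5026 bp from an edge of Lrrc4b, just past the 5 kb limit.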
